A study of Mus musculus with 6 samples.

Results

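The genes described here are those of the matrix metalloproteases (MMPs), the ADAMTS proteases with their ADAMTS-like relatives, and the tissue inhibitors of metalloproteases (TIMPs). They were measured in cultured mouse embryonic fibroblasts on Affymetrix gene-level arrays. Members were chosen by gene symbol (Mmp, Adamts, Adamtsl or Timp and a number) among probesets annotated to a single gene, and each gene is given by its probeset with the highest mean. This gave 49 genes of 19288 named on the array: 22 Mmp, 18 Adamts, 5 Adamtsl and 4 Timp genes. Of the 49, 44 lay above the detection level (the 25th percentile of an array's signals) on at least 3 of the 6 arrays and were tested. Adamts2 and Mmp15 were not analysed here.

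The 3 tested arrays came from cells carrying the hairpin construct shARF, and the 3 others from cells carrying shSCR. ARF is a tumour suppressor protein encoded at the Cdkn2a locus, and a short hairpin RNA lowers the transcript it matches. The series title names the cells of both groups dp53R and every sample title carries the word Ras, but the labels explain neither word, so what the groups share in p53 and RAS cannot be stated further. The labels call the 3 arrays of a group biological replicates without saying whether they were separate cultures, cell isolates or animals. The p-values thus reflect no more than how these samples vary, and that variation may be technical. The values are normalized signals on a linear scale, and differences are log2 values, shARF minus shSCR.

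MMPs are zinc-dependent enzymes that cut collagens, proteoglycans and other proteins of the extracellular matrix. They are made as inactive precursors and are switched on when the propeptide is removed, by plasmin, by other MMPs or, for the membrane-type enzymes, by furin. ADAMTS enzymes are secreted relatives that bind the matrix through thrombospondin repeats: some cut the proteoglycans aggrecan and versican, others trim procollagen. ADAMTS-like proteins share the repeats but lack the protease domain, and TIMPs block the active site of MMPs and of some ADAM and ADAMTS proteases. Fibroblasts are a main source of many of these proteins in connective tissue.

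The Cdkn2a gene, which encodes ARF, was lower in the shARF arrays. Its signal was read for the gene as a whole, so it cannot be assigned to the ARF transcript alone. Cdkn2a gave signals of 315, 254 and 286 in shARF and 535, 539 and 516 in shSCR, a log2 difference of -0.90 ± 0.0865 (SE; limma, adjusted p = 0.00459). All 8 fibroblast markers listed (Col1a1, Col1a2, Pdgfra, Pdgfrb, Thy1, Vim, Fap and S100a4) were above the detection level on all 6 arrays. The same held for all 6 cartilage and all 5 smooth muscle markers listed, so detection alone does not single out fibroblasts. The summed signal of the fibroblast markers was 17335 to 18031 in shARF and 16892 to 18115 in shSCR, and none of them passed the test. The sum is led by the bright Vim and S100a4 and hides shifts in both directions. Single fibroblast markers differed by -0.38 for Thy1 to 0.18 for Col1a1. Of 7 macrophage markers 5, including Adgre1, Csf1r, Ptprc and Lyz2, were below the detection level on every array. The other 2, Cd68 and Mrc1, were lower on every shARF array than on any shSCR array, and neither passed. Cd68 was detected on all 6 arrays, at 51.4, 48.6 and 40.1 in shARF and 63.0, 58.5 and 57.3 in shSCR (limma, adjusted p = 0.109). Mrc1 lay near the detection level and differed by -0.29 ± 0.0792 (SE; limma, adjusted p = 0.0999). The summed macrophage signal was 105 to 116 in shARF and 123 to 132 in shSCR.

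Few of these genes differed between the groups, and those that passed the test were lower in shARF. Of the 44 tested members 0 rose and 3 fell: Timp3, Adamts12 and Adamtsl1 (limma, adjusted p under the threshold of 0.05 over all tested probesets). Among all 15145 genes tested, 1.62% were called higher and 2.38% lower by the same rule, 4.01% in all, against 6.82% of the members. At an unadjusted limma p under 0.05, 6 members were higher and 4 lower, where 8.76% and 13.4% of all genes were. The groups did not overlap for 7 members higher and 6 lower in shARF, 29.5% of the members, against 12.0% and 16.6% of all genes, 28.6% in all, so the share is near that of the array. The median difference over the members was -0.02, against -0.01 over all genes tested, and 21 of the 44 were positive.

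**Figure D1:**
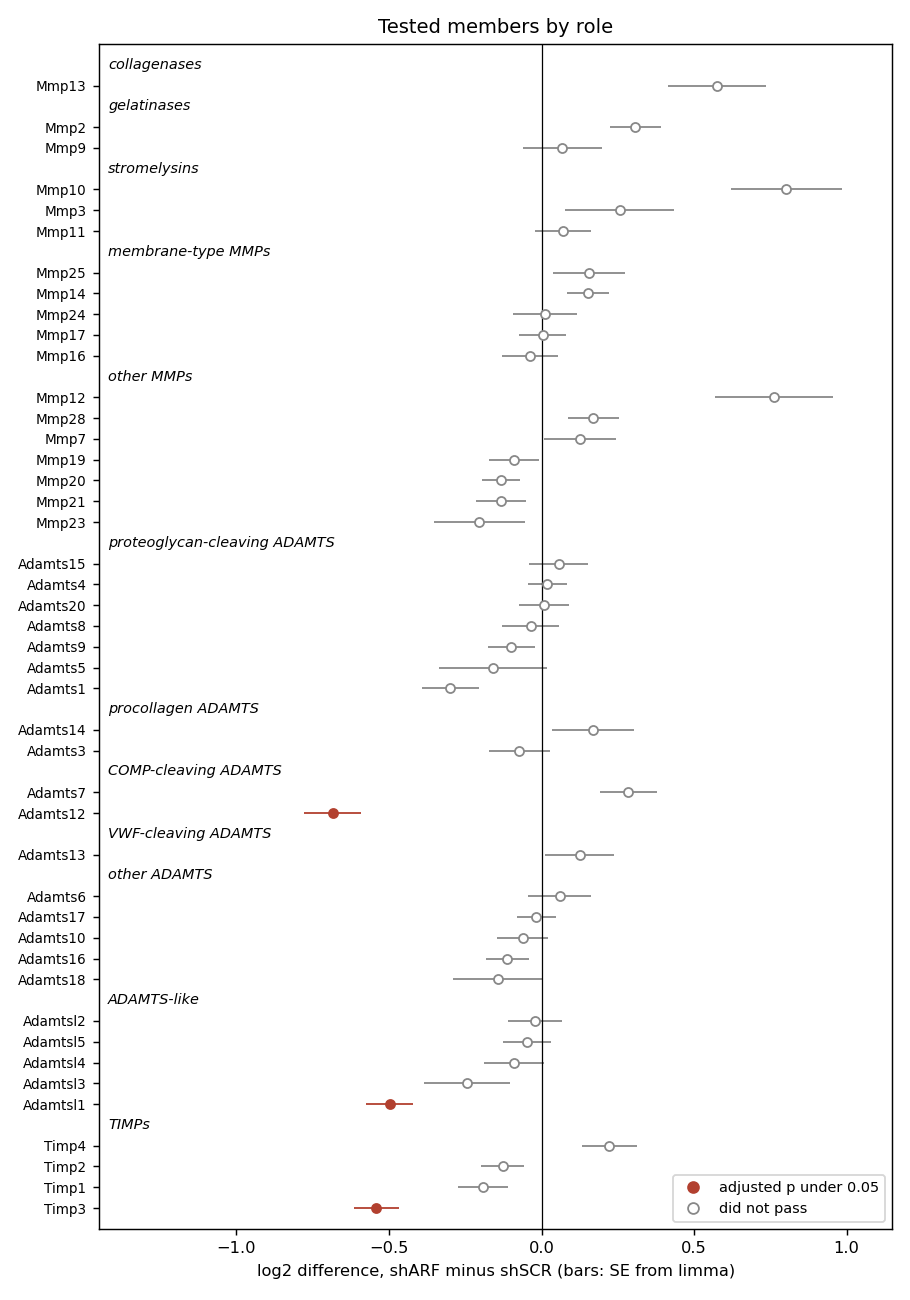
Log2 difference in signal, shARF minus shSCR, with its SE from limma for the 44 tested members, grouped by role (3 arrays per group). The 3 filled points (Timp3, Adamts12 and Adamtsl1) passed the test and lie below 0, and Mmp10, Mmp12 and Mmp13 lie farthest to the right without passing.

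Of the inhibitors, Timp3 fell. TIMP3 is the TIMP that stays bound to the extracellular matrix, and it inhibits MMPs, the sheddase ADAM17 and the aggrecan-cleaving ADAMTS enzymes. Its signal was 1006, 936 and 951 in shARF and 1525, 1345 and 1343 in shSCR. Every shARF array lay below every shSCR array. The means were 964 ± 36.9 and 1405 ± 105 (SD, n = 3 each), a log2 difference of -0.54 ± 0.0734 (SE; limma, adjusted p = 0.0126). The adjusted p was 0.0341 to 0.0482 with each array left out in turn, and 0.0973 without both replicate 2 arrays, where the difference was -0.55.

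The other 3 TIMP genes did not pass. Timp1, which encodes a soluble inhibitor induced by growth signals, measured 4067, 3563 and 3924 in shARF and 4794, 4119.8 and 4289 in shSCR. The groups did not overlap, and the difference was -0.19 ± 0.0833 (SE; limma, adjusted p = 0.25). Timp2 encodes the inhibitor that, with MMP14, also serves in activating pro-MMP2. It measured 1849, 1650.0 and 1756 in shARF against 2028, 1873 and 1841 in shSCR, and the groups overlapped. Timp4 lay near the detection level, at 15.4, 16.9 and 16.5 in shARF and 14.3, 12.4 and 15.3 in shSCR, and was above that level on 2 of the 3 shSCR arrays. Its difference was 0.22 ± 0.0903 (SE; limma, adjusted p = 0.224).

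Of the enzymes that cleave cartilage oligomeric matrix protein (COMP), Adamts12 fell while Adamts7 did not pass. ADAMTS12 and ADAMTS7 are close relatives. Adamts12 measured 63.0, 77.5 and 68.7 in shARF and 111, 104 and 119.6 in shSCR, with no overlap. The difference was -0.68 ± 0.0933, a 1.61-fold fall (SE; limma, adjusted p = 0.0129). The call was lost without shSCR replicate 1 or 3, at an adjusted p of 0.0554 and 0.0614. Adamts7 measured 89.3, 80.2 and 70.6 in shARF and 65.8, 62.6 and 68.1 in shSCR, a difference in the other direction of 0.28 ± 0.0939 (SE; limma, adjusted p = 0.152). The difference between these 2 genes' responses was not tested.

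Adamtsl1, which encodes punctin, a secreted ADAMTS-like matrix protein without protease activity, fell. Its probeset with the highest mean gave 30.1, 32.8 and 30.2 in shARF and 40.6, 43.5 and 47.4 in shSCR, so that all shARF arrays were lower. The difference was -0.50 ± 0.077 (SE; limma, adjusted p = 0.0198). The other probeset of the gene gave 28.2, 27.5 and 24.7 in shARF and 29.8, 30.4 and 36.9 in shSCR. It was also lower on every shARF array, by -0.27 ± 0.1, and did not pass (SE; limma, adjusted p = 0.192). With both probesets averaged the difference was -0.38 and passed (adjusted p = 0.0427). The call was lost without shSCR replicate 2 or 3, without shARF replicate 1 or 3, and without both replicate 2 arrays (adjusted p 0.0644 to 0.108). The other 4 ADAMTS-like genes, Adamtsl2 to Adamtsl5, differed by -0.24 for Adamtsl3 to -0.02 for Adamtsl2, and none of them passed. ADAMTSL2 and ADAMTSL4 are known to bind fibrillin microfibrils.

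**Figure D2:**
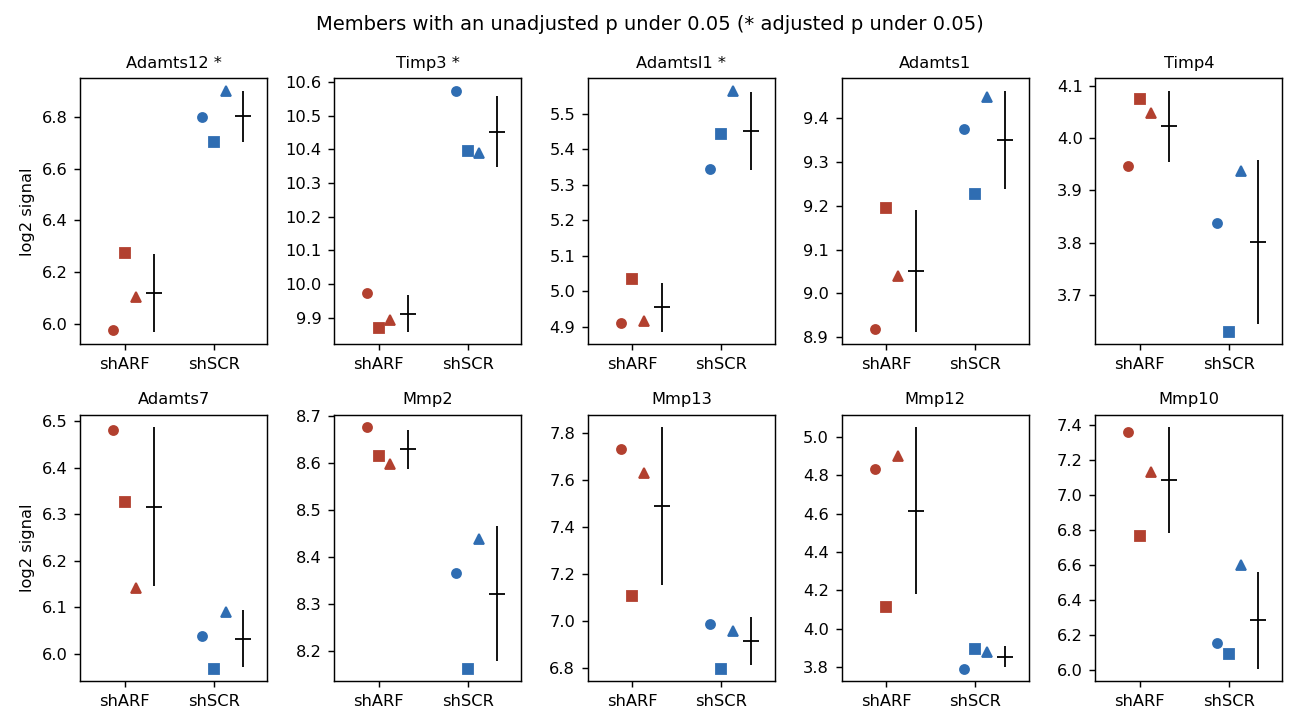
Log2 signal on every array of the 10 members with an unadjusted p under 0.05, shARF at the left and shSCR at the right of each panel; circles, squares and triangles are replicates 1, 2 and 3, and the bar gives the mean ± SD (n = 3). Each panel has its own axis, which does not start at 0; the groups do not overlap in any of the 10, and the squares of Mmp12 and Mmp13 in shARF lie near the shSCR points.

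None of the 7 ADAMTS genes for proteoglycan-cleaving enzymes passed. Adamts1, whose product cuts versican and aggrecan, measured 484, 587 and 526 in shARF and 664, 599.6 and 699 in shSCR. The highest shARF array lay just below the lowest shSCR array, and the difference was -0.30 ± 0.0932 (SE; limma, adjusted p = 0.136; with an intensity trend 0.0401, which passed). Adamts5, which encodes the main aggrecan-cleaving enzyme of mouse cartilage, varied widely within groups. Its values were 354, 531 and 374 in shARF and 542, 389.9 and 462 in shSCR, and these overlap. Adamts4, the other aggrecanase gene, differed by 0.02 ± 0.0638. Adamts8, Adamts15 and Adamts20 differed by -0.04 to 0.06. The procollagen-trimming genes Adamts3 and Adamts14 differed by -0.07 and 0.17. Adamts13, whose product cuts von Willebrand factor in blood, lay near the detection level. The remaining tested genes Adamts6, Adamts10, Adamts16, Adamts17 and Adamts18 differed by -0.14 to 0.06.

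The probesets of Adamts9 gave unequal differences. ADAMTS9 is a versican-cleaving enzyme of the embryo. Each of its 6 probesets was lower in shARF, by -0.59 to -0.10, and none passed (limma, adjusted p 0.075 to 0.619). The probeset with the highest mean gave 74.6, 72.7 and 73.3 in shARF and 70.9, 83.1 and 83.0 in shSCR, which overlap. Probeset 10546450 gave 49.5, 52.0 and 42.1 in shARF and 57.7, 73.8 and 87.7 in shSCR, which do not. The groups did not overlap in 3 of the 6 probesets, and their mean differed by -0.31 ± 0.103 (SE; limma, adjusted p = 0.13). Adamts17, a gene for an enzyme linked to fibrillin microfibrils, had 3 tested probesets that differed by -0.11 to 0.23, and Adamts3 had 6 that differed by -0.07 to 0.25. None of these passed.

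**Figure D3:**
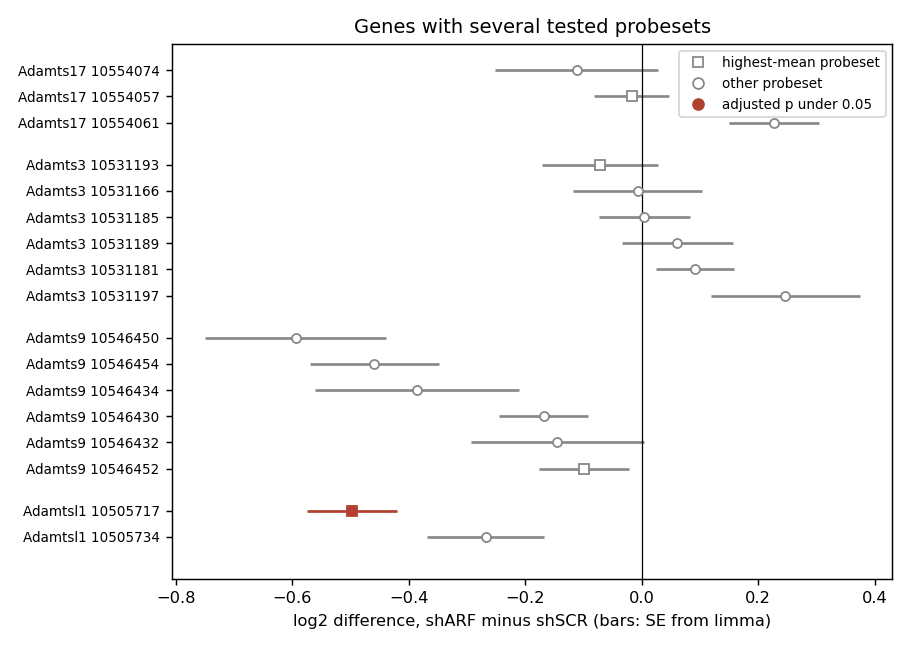
Log2 difference, shARF minus shSCR, with its SE from limma for each tested probeset of the 4 members that have several; squares mark the probeset that stands for the gene. The 6 probesets of Adamts9 all lie below 0 and spread from -0.59 to -0.10, and only the Adamtsl1 square is filled (adjusted p under 0.05).

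The MMP genes with the largest positive differences belong to one gene cluster. On mouse chromosome 9, 10 Mmp genes follow one another in the order Mmp13, Mmp12, Mmp1b, Mmp3, Mmp1a, Mmp10, Mmp8, Mmp27, Mmp20 and Mmp7 (RefSeq, assembly GRCm38.p6). Of these, Mmp1a, Mmp1b, Mmp8 and Mmp27 did not reach the detection level on 3 arrays. The 6 tested differed by -0.13 to 0.80, with 5 positive and a median of 0.42. The 12 tested Mmp genes elsewhere in the genome differed by -0.20 to 0.31, with a median of 0.04. None of the 18 passed, and no test of the cluster against the others was made.

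The letters before the start sites of these genes are shown because the same short motif recurs in them. AP-1, the dimer of FOS and JUN proteins that acts downstream of growth factors and RAS, is known to bind TGAGTCA and TGACTCA in MMP promoters. The pattern searched here, TGANTCA, allows any base at N and is wider. Its counts thus include other forms, such as the TGAATCA of Mmp20. Windows from RefSeq (GRCm38.p6), 250 bases before to 50 after a start site, were at hand for 34 of the 49 genes. All 10 cluster genes had a window. The 15 genes without one, Mmp2, Mmp9, Mmp16, Mmp17 and Mmp19 among them, lay outside the cluster and could not be searched. TGANTCA, which reads the same on both strands, was in a window of 8 of the 10 cluster genes (not of Mmp8 or Mmp27) and of 0 of the other 24 members. Of all 27025 genes with a RefSeq window, 8.97% hold it in a window, and of all 32851 windows 7.81% do. In the 8 genes its first base lay 35 to 95 bases before the start. The 100 bases before the start of the 6 tested cluster genes follow, 5′ to 3′, with TGANTCA in capitals; for Mmp12 and Mmp7, which have 2 start sites each, the one that holds the motif is shown.
Mmp13 (chr9:7272414-7272513, plus strand): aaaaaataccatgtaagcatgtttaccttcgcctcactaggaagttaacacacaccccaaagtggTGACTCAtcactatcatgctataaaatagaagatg
Mmp12 (chr9:7347274-7347373, plus strand): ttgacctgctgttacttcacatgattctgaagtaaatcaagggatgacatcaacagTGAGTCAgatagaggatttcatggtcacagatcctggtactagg
Mmp3 (chr9:7445722-7445821, plus strand): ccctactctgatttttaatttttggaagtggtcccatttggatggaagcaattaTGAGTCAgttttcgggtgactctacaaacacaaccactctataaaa
Mmp10 (chr9:7502242-7502341, plus strand): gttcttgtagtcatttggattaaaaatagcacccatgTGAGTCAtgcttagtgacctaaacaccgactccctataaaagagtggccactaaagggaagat
Mmp20 (chr9:7628131-7628230, plus strand): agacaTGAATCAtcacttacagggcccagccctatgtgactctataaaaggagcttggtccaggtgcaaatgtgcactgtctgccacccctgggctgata
Mmp7 (chr9:7691990-7692089, plus strand): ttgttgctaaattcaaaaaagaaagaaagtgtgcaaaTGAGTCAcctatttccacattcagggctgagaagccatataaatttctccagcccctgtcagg

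The motif was present in cluster genes with large and with small differences. Mmp7 and Mmp20 carry it and lay near the detection level in both groups, so a match is a description of the letters and says nothing of binding in these cells. For comparison, the same stretch before the start of Timp3 holds none:
Timp3 (chr10:86300312-86300411, plus strand): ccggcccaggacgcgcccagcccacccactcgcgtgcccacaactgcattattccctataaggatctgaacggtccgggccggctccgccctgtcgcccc

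Mmp10, which encodes stromelysin 2, a protease of broad range that also activates other pro-MMPs, had the largest difference of all members. It measured 164, 109 and 140.3 in shARF and 71.3, 68.3 and 97.0 in shSCR. All shARF arrays were higher, the lowest of them by little. The means were 138 ± 27.9 and 78.9 ± 15.8 (SD, n = 3 each), a 1.74-fold difference that did not pass (log2 0.80 ± 0.183, SE; limma, adjusted p = 0.0634). It passed with an intensity trend in the prior, a stricter filter or averaged probesets (adjusted p = 0.0121, 0.0353 and 0.039). Mmp3, the stromelysin 1 gene, measured 1259, 854 and 1186 in shARF and 874, 774 and 1105 in shSCR. These overlap, and the difference was 0.26 ± 0.179 (SE; limma, adjusted p = 0.457).

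Mmp13 and Mmp12 differed in the same direction without passing. Mmp13, the collagenase that is the main rodent enzyme for cutting fibrillar collagen, measured 212, 138 and 198 in shARF and 127, 111 and 124 in shSCR. The difference was 0.58 ± 0.159 (SE; limma, adjusted p = 0.106). Mmp12 encodes macrophage elastase. It measured 28.5, 17.3 and 29.8 in shARF and 13.8, 14.8 and 14.7 in shSCR, where it was above the detection level on 2 of 3 arrays. The difference was 0.76 ± 0.195 (SE; limma, adjusted p = 0.0869). For both genes shARF replicate 2 lay well below the other shARF arrays, and without it both passed: Mmp12 at 1.01 (adjusted p = 0.00694) and Mmp13 at 0.77 (adjusted p = 0.0197). They also passed with an intensity trend (0.0285 and 0.0308). Replicate 2 was the lowest shARF array for Mmp3, Mmp10, Mmp12 and Mmp13 alike, and the lowest shSCR array for 3 of these 4. Over the other 40 tested members it was the lowest shARF array for 12 and the lowest shSCR array for 19.

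**Figure D4:**
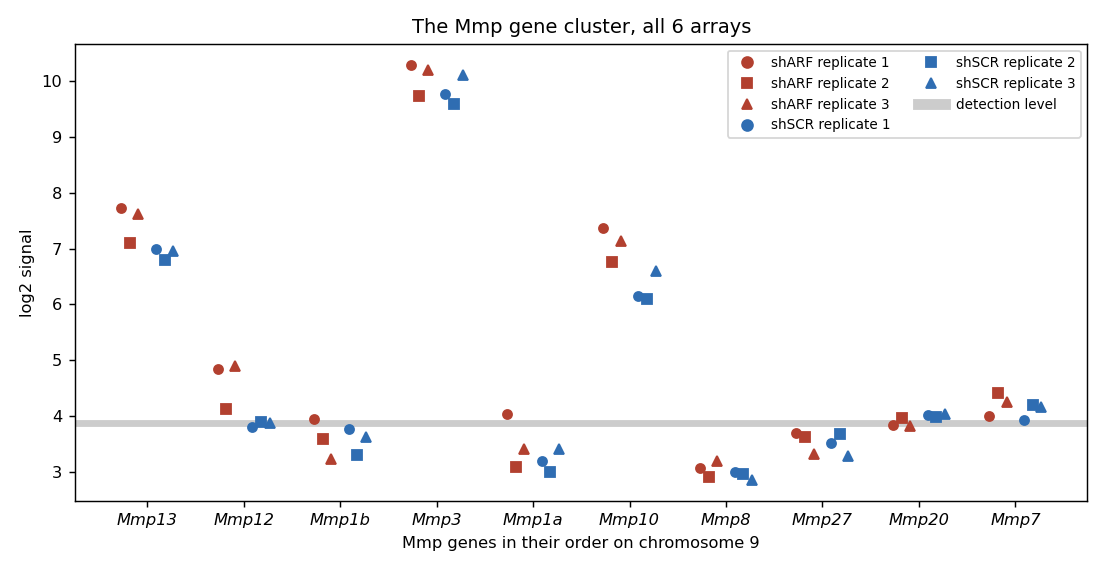
Log2 signal on each array of the 10 Mmp genes of chromosome 9 in their order there, red shARF left of blue shSCR, with circles, squares and triangles for replicates 1, 2 and 3 and a grey band for the detection level. Levels of different genes come from different probes and are not compared; Mmp10, Mmp12 and Mmp13 have every red point above every blue one, and the red square is the lowest red point in Mmp3, Mmp10, Mmp12 and Mmp13.

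**Figure D5:**
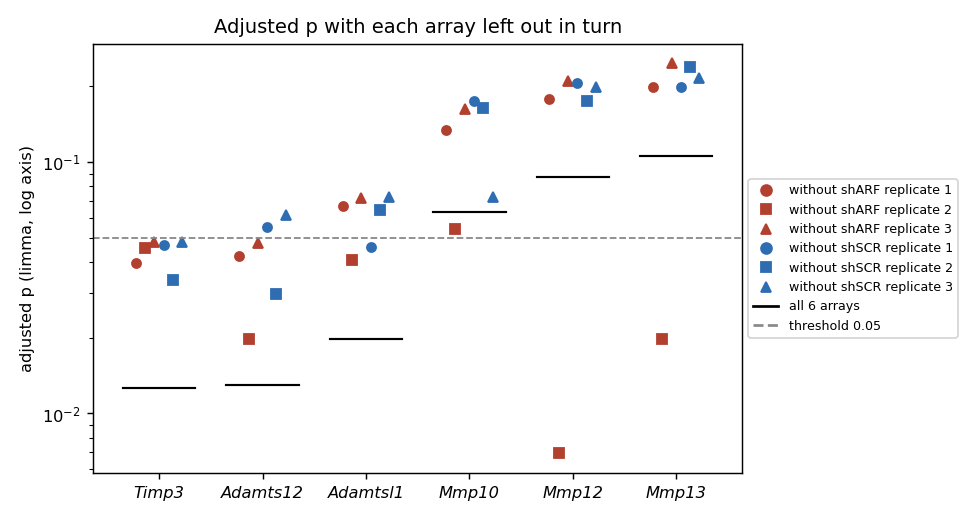
Adjusted p from limma (log axis) for 6 members with each array left out in turn (points) and with all 6 arrays (black line); the dashed line is the threshold of 0.05. Timp3 stays below it in all 6 cases, Adamts12 in 4 and Adamtsl1 in 2, while Mmp12 and Mmp13 fall below it only without shARF replicate 2.

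The other MMP genes differed less. Mmp2 encodes gelatinase A, which cuts denatured collagen and basement membrane collagen. It measured 409, 392 and 387 in shARF and 329.9, 286 and 347 in shSCR. The groups did not overlap, and the difference of 0.31 ± 0.0829 did not pass (SE; limma, adjusted p = 0.0987) except with an intensity trend (adjusted p = 0.0302). Mmp14, the membrane-type enzyme that activates pro-MMP2, measured 1101, 1052 and 1037 in shARF and 1019, 899 and 955 in shSCR. These did not overlap either, with a difference of 0.15 ± 0.0682 (SE; limma, adjusted p = 0.262). Mmp9, gelatinase B, measured 49.0, 40.8 and 37.2 in shARF against 38.0, 46.7 and 36.4 in shSCR. The membrane-type genes Mmp16, Mmp17, Mmp24 and Mmp25 differed by -0.04 to 0.15. Mmp11, a stromelysin that furin activates inside the cell, differed by 0.07, Mmp28 by 0.17, Mmp19 by -0.09 and Mmp23 by -0.20.

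Members below the detection level get no fold. The collagenase genes Mmp1a and Mmp1b, related rodent genes whose probes may read both, were above that level on 1 shARF array each and 0 shSCR arrays. Mmp8, the neutrophil collagenase gene, Mmp27 and Adamts19 were above it on 0 arrays. Mmp20 (enamel) and Mmp21 were above it on 2 shARF and 3 shSCR arrays. Mmp20 measured 14.3, 15.6 and 14.1 in shARF and 16.1, 15.8 and 16.4 in shSCR. In all, the 34 tested members with an unadjusted p of 0.05 or more differed by -0.24 to 0.26, with SEs of 0.0632 to 0.179, and the groups did not overlap in 3 of them (Mmp14, Mmp20 and Timp1).

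Genes that act on or with these enzymes mostly did not pass. In 8 lists of such genes, 96 were tested: 3 rose and 4 fell, 7.29%, with a median of -0.01. Over all genes tested, 1.62% were called higher and 2.38% lower, 4.01% in all, and in the lists below, of 5 to 20 genes each, no more than 2 genes passed. In the list of MMP activation and uptake 1 of 10 rose. This was Furin, the convertase that removes propeptides of membrane-type MMPs and ADAMTS enzymes, with 401, 368 and 364 in shARF and 296, 313 and 289.7 in shSCR (0.33 ± 0.0666, SE; limma, adjusted p = 0.0436). Reck, a membrane inhibitor of MMPs, differed by -0.11 ± 0.0664. Of 11 ADAM protease genes 1 rose, Adam8, at 175, 143 and 161 in shARF and 107, 99.8 and 119.8 in shSCR (0.55 ± 0.0997, SE; limma, adjusted p = 0.0324). With 1 array removed, Furin did not pass in any of the 6 cases and Adam8 did not in 5 of the 6.

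Of 10 genes of lysosomal cathepsins and cystatins 1 fell. Ctsk encodes cathepsin K, which degrades collagen. It measured 118, 105 and 112 in shARF and 211, 176 and 195 in shSCR, with no overlap (-0.80 ± 0.0845, a 1.74-fold fall; limma, adjusted p = 0.00638), and kept its call without any 1 array. Of 8 plasminogen activation genes 1 fell, Anxa2, whose product annexin A2 holds plasminogen at the cell surface. It measured 1493, 1650.4 and 1499.6 in shARF and 2013, 2155 and 2316 in shSCR (-0.48 ± 0.0768, SE; limma, adjusted p = 0.0217), a call lost without 4 of the 6 arrays. Plau, the urokinase gene, measured 1097, 718 and 1024 in shARF and 1419, 977 and 1314 in shSCR. Here too replicate 2 was the lowest array of each group, and the difference of -0.39 ± 0.193 did not pass (SE; limma, adjusted p = 0.306).

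Of 14 inducers of MMP genes 2 fell, the receptor genes Osmr (oncostatin M) and Egfr (epidermal growth factor), by -0.41 ± 0.0696 and -0.32 ± 0.0671 (SE; limma, adjusted p = 0.026 and 0.0494). Neither gene passed once 1 array, whichever it was, had been removed. Among 18 AP-1 and ETS factor genes 0 passed limma's test, with differences of -0.24 to 0.31; Fosl1, a FOS-related gene, differed by 0.14 ± 0.0802. Of 20 substrate genes 1 rose, Eln (elastin, which MMP12 cuts), at 60.1, 63.3 and 66.6 in shARF and 43.3, 46.6 and 43.7 in shSCR (0.51 ± 0.0666, SE; limma, adjusted p = 0.0114), a call lost without 2 of the 6 arrays. Among 5 astacin protease and enhancer genes none passed.

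Some markers of other cell types passed the test. In the smooth muscle list 2 of 5 fell, Cnn1 by -1.25 and Acta2 by -0.28, and the summed signal was 5189 to 5550 in shARF and 7030.5 to 7317 in shSCR. In the epithelial list 1 of 5 tested rose: the keratin gene Krt18, at 317, 189.6 and 244 in shARF and 136, 116 and 134 in shSCR. The summed epithelial signal was 340.3 to 475 in shARF and 231 to 263 in shSCR, with Cdh1 below the detection level on every array. In the neutrophil list Ly6g rose 2.58-fold, with shARF replicate 2 again the lowest shARF array (155, 84.9 and 146 in shARF against 48.7, 44.2 and 52.0 in shSCR). The probes of Ly6g may also read other genes of the Ly6 family, so its signal cannot be taken as that of a neutrophil marker alone. The other 5 neutrophil markers summed to 76.4 to 82.0 in shARF and 79.7 to 84.3 in shSCR. Among the tested markers of endothelium (4), cartilage (6) and bone (2) none passed, with summed signals of 93.9 to 102 in shARF and 94.3 to 101 in shSCR, of 397 to 452 and 369 to 419, and of 54.3 to 65.8 and 50.9 to 55.8. The part of these other markers in the differences above was not tested. In arrays of cell populations, fewer cells of a type and less RNA per cell cannot be told apart.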

How the data were processed

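The data are 6 arrays of total RNA from cultured mouse embryonic fibroblasts, 3 shARF and 3 shSCR. The authors deposited normalized intensity values on a linear scale. Affymetrix Expression Console with RMA made them, per the submitters' processing notes. No version of it was stated. RMA equalises the arrays' distributions, which hides a change common to most genes, and shrinks folds of dim genes. Array medians were 41.97 to 42.86, and precision is limited by having 3 arrays in a group.

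Values were turned to log2. Of 26851 probesets 21056 carried 1 gene symbol in the platform annotation, and all 49 members' symbols were in the RefSeq table (GRCm38.p6). The 20310 probesets above the 25th percentile of the array (14.1 to 14.9 in signal) on at least 3 arrays were fitted with limma (version 3.58.1; R version 4.3.3; two-sided test, Benjamini-Hochberg over all of them, threshold 0.05), checked on simulated data. The design text names SAM, which was not run. Members, gene lists and the naming rule (values on every array for members with an unadjusted p under 0.05, list genes that passed, Cdkn2a) were chosen with earlier results of these data known. Members given with array values beyond that rule, the second Adamts9 probeset, the list genes Plau, Reck and Fosl1, and the marker genes were named after their values were seen. Promoter windows were searched on both strands. Alternatives changed the filter, scaling, prior, probeset rule, replicate block and arrays used.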

Additional observations from a re-analysis of the deposited data

How the results depend on the processing

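Of 147 comparisons of a single member with its main result (10 members, 15 settings, fewer where a stricter filter removed Mmp12, Adamtsl1 and Timp4), 128 kept their side of the threshold, 8 lost a call, 11 gained one and 0 turned direction. The fall of Cdkn2a passed in all 15 settings. The count of genes called was 607 with 6 arrays. It was 372 without a filter on dim probesets, 996 with the detection level at the 50th percentile, 1239 with an intensity trend, 336 with the replicate block and 137 without both replicate 2 arrays (this choice followed a look at the data). With 1 array left out it was 150 to 330. Members called higher, 0 with 6 arrays, numbered 1 with the stricter filter (Mmp10), 4 with the trend (Mmp2, Mmp10, Mmp12 and Mmp13), 1 with averaged probesets (Mmp10) and 2 without both replicate 2 arrays (Mmp12 and Mmp13), and 0 to 2 with 1 array left out. Members called lower, 3 with 6 arrays, numbered 1 without both replicate 2 arrays (Adamts12) and 1 to 3 with 1 array left out, with 1 (Timp3) without shSCR replicate 3. The replicate block called the same 3 members and changed no other member's call among the 10 followed, while Anxa2, Egfr and Furin lost theirs. Same-numbered arrays of the 2 groups correlated at 0.00062 to 0.0778 in their deviations from the group means. For arrays with different numbers the correlation was -0.14 to 0.0936. Whether same-numbered arrays were paired cannot be told from this correlation over all tested probesets, which can miss a link in some genes. The members' median, -0.02, was 0.00690 without the filter, -0.0485 with the stricter one, 0.00514 with averaged probesets, and -0.0313 to -0.00479 with 1 array left out, so its sign is not settled. The 7 list genes called numbered 12 with the stricter filter, 18 with the trend, 2 without both replicate 2 arrays and 1 to 5 with 1 array left out. In 43 of 105 comparisons a list gene lost its call. Mmp12 and Timp4 lay near the detection level in shSCR, which limits what their values can show. The causes of these changes were not tested, beyond the smaller number of arrays or probesets where a setting leaves some out.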

Other observations

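Beside TGANTCA, 2 other motifs were searched on both strands of the promoter windows. TATAAA, the core of the TATA box, was in a window of 9 of the 10 Mmp genes of chromosome 9, all but Mmp27, and of 3 of the 24 other members with a window, namely Adamts1, Adamtsl2 and Mmp21. Among all 27025 genes 15.7% hold it in a window, and among all 32851 windows 13.6% do. The core motif of the interferon-stimulated response element was in a window of 1 of the 34 members, Mmp13, against 3.99% of all genes. It was in 3.44% of all windows. No relation between a motif and the differences between groups was tested, and a match is no evidence of a site.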
